A study of Mus musculus with 6 samples.

Results

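The elastic fibre and dermal proteoglycan genes examined were Fbn1, Fbn2, Fbln1, Fbln2, Fbln5, Lox, Loxl1, Dcn, Lum and Bgn, taken by name, 10 of the 26814 gene symbols counted. Transcript levels were read in RNA-Seq libraries made from the top lip of 6 adult female mice on a C57BL/6J background. Of these, 3 mice were wild type (WT) and 3 were homozygous for the Gtf2ird1tm1Hrd knockout allele (KO), with 1 library per mouse and no treatment. The allele is carried in every cell of the animal, so the comparison does not single out the dermis. Whole lip holds epidermis, hair follicles, dermis, muscle, fat and vessels, and the labels give no batch, litter or cage.

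Elastic fibres give the dermis its recoil. Fibrillins assemble into microfibrils, fibulins guide tropoelastin onto them, and lysyl oxidases cross-link the elastin that is laid down. Decorin, lumican and biglycan are small leucine-rich proteoglycans, short protein cores that bind collagen fibrils and carry chondroitin, dermatan or keratan sulphate chains. Dermal fibroblasts are the usual source of these transcripts in skin. The question put to the data was whether their levels differed between the genotypes.

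The libraries held 20164081 to 29491767 counts, and levels are given in CPM, a gene's counts scaled to a common library total. Fbn2, the rarest of the 10 genes, averaged 8.22 CPM in KO. Counts of the targeted gene were higher in the libraries labelled KO, a label of the allele and not of a transcript level. The study's methods describe tail biopsies taken to check the genotypes. Gtf2ird1 stood at 78.2, 70.2 and 70.7 CPM in WT and at 166, 162 and 144 CPM in KO, a log2 fold change of 1.11 (SE 0.13, adjusted p = 0.0018, edgeR quasi-likelihood). A count summed over a whole gene does not tell whether its transcripts are intact, so WT and KO stand for the libraries labelled WT and KO. KO3 stood apart from the other libraries labelled KO. Its log2 CPM correlated with KO1 at r = 0.959 and with KO2 at 0.971, against 0.986 between KO1 and KO2, and with the WT libraries at 0.959 to 0.965. The main values that rest on KO3 are therefore given with and without it.

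Not 1 of the 10 genes passed the test, in either direction, yet 9 of the 10 fitted changes were below 0. Bgn, Fbln2 and Loxl1 had the lowest fitted log2 fold changes of KO against WT, -0.82, -0.77 and -0.63, and Fbln1 was the exception at 0.10. Dcn, the most abundant of the genes per length, averaged 17.7% less in KO than in WT and overlapped between the genotypes. Adjusted p ranged from 0.118 to 0.812 (edgeR quasi-likelihood test, adjusted over 15009 genes). The same test called 2.09% of all tested genes lower and 4.38% higher in KO. KO3 lay close to WT for most of the genes. With KO3 left out, 6 of the 10 genes were called lower, where 16.2% of all genes were. In bulk tissue, fewer cells of a type and less RNA per cell cannot be told apart.

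The genes lie on 8 chromosomes of GRCm38. Dcn and Lum lie close together on the plus strand of chromosome 10, at chr10:97479609-97518143 and chr10:97565128-97572703. Bgn lies at chrX:73483602-73495933 on the plus strand. Of the fibulins, Fbln1 is at chr15:85205949-85286535 and Fbln2 at chr6:91212455-91272540, both on the plus strand, and Fbln5 at chr12:101746565-101819055 on the minus strand. Fbn1 is at chr2:125300594-125507993 and Loxl1 at chr9:58287738-58313186. The exons of 3 of the genes overlap exons on the opposite strand, and the strand setting of the counting is not stated. Gm9913 shares 2442 exonic bases with Fbn1 and held 1 to 5 counts per library, and Gm26507 shares 129 with Fbn2 and held 0 to 4.

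RefSeq promoter windows, from 250 bases before to 50 after a transcript start in GRCm38.p6, were at hand for 5 of the genes, Fbn1, Fbln1, Fbln2, Fbln5 and Bgn, in 7 windows. The letters searched on both strands were GGATTA, the core that the GTF2IRD1 protein is known to bind, and GGGCGG, the GC box of Sp1. They also included TGACTCA of AP-1, TATAAA of the TATA box and CAGACA of SMAD factors. GGATTA was in 0 of the 7 windows, against 7.06% of all 32851 windows. GGGCGG was in 5 windows, 1 for each of the 5 genes, against 35.7% of all windows. TGACTCA and TATAAA were in 0 windows each, against 5.20% and 13.6%, and CAGACA was in 3, of Fbln1 and Fbln5, against 21.04%. The windows of Fbln1 overlap, and the CAGACA match in both is the same site. The 250 bases before the start are shown for Bgn and Fbln1, the lowest and highest fold changes of the 5 genes, and for Fbln5, which lay between them. They run 5′ to 3′ on the strand of the gene, at chrX:73483351-73483600 (plus), chr12:101819120-101819369 (minus) and chr15:85205699-85205948 (plus), with GC boxes of either strand in capitals.
Bgn: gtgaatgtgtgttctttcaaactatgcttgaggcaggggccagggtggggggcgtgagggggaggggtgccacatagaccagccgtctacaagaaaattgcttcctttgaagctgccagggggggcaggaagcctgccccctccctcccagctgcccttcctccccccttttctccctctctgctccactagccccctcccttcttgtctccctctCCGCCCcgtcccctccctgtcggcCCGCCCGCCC
Fbln5: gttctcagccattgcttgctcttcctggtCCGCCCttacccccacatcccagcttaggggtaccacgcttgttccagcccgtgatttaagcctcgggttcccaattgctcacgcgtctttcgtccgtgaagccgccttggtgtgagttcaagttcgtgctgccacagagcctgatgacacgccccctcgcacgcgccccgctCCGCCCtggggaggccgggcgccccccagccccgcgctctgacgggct
Fbln1: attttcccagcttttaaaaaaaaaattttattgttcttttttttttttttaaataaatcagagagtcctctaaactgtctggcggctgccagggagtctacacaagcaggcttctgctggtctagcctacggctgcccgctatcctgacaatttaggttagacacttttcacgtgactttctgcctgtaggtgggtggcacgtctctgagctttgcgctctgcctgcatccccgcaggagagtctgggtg
Bgn held 3 matches here, of which the last 2 share bases, Fbln5 held 2, and the first start of Fbln1 held 0. A match gives letters and not a bound site, and a window with none says nothing of a factor. Fbln1 has a second RefSeq start close downstream, and its window overlaps the first and held the GC box. The GC box was thus found for Fbln1 as for each of the other genes with a window, while CAGACA was found for Fbln1 and Fbln5 alone. Any relation of these letters to the fold changes was not tested.

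Measured per kilobase of exon, the genes spanned a wide range, and their order was led by the proteoglycans. Dcn stood at 131 ± 33.5 CPM per kb in WT and 108 ± 9.04 in KO (mean ± SD, n = 3 libraries), and Bgn at 99.5 ± 13.2 and 56.3 ± 30.3. Lum came next, at 42.9 ± 11.4 in WT and 36.3 ± 1.04 in KO. Fbln2, which bridges fibrillin and basement membrane proteins, led the elastic fibre genes with 26.6 ± 1.85 in WT and 15.6 ± 7.03 in KO. Loxl1, Fbn1 and Fbln1 followed in WT at 20.4 ± 4.84, 19.0 ± 7.77 and 13.4 ± 2.34 CPM per kb. Fbln1 was the lowest of these 3 in every WT library, while Loxl1 was above Fbn1 in WT1 and WT2 and below it in WT3. Fbln5 at 5.88 ± 0.785 and Lox at 5.72 ± 0.438 were within their spread of each other and also changed order between WT libraries. Fbn2 was last at 0.779 ± 0.153 in WT and 0.622 ± 0.171 in KO. Dcn ranked first and Fbn2 last in all 6 libraries.

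**Figure D1:**
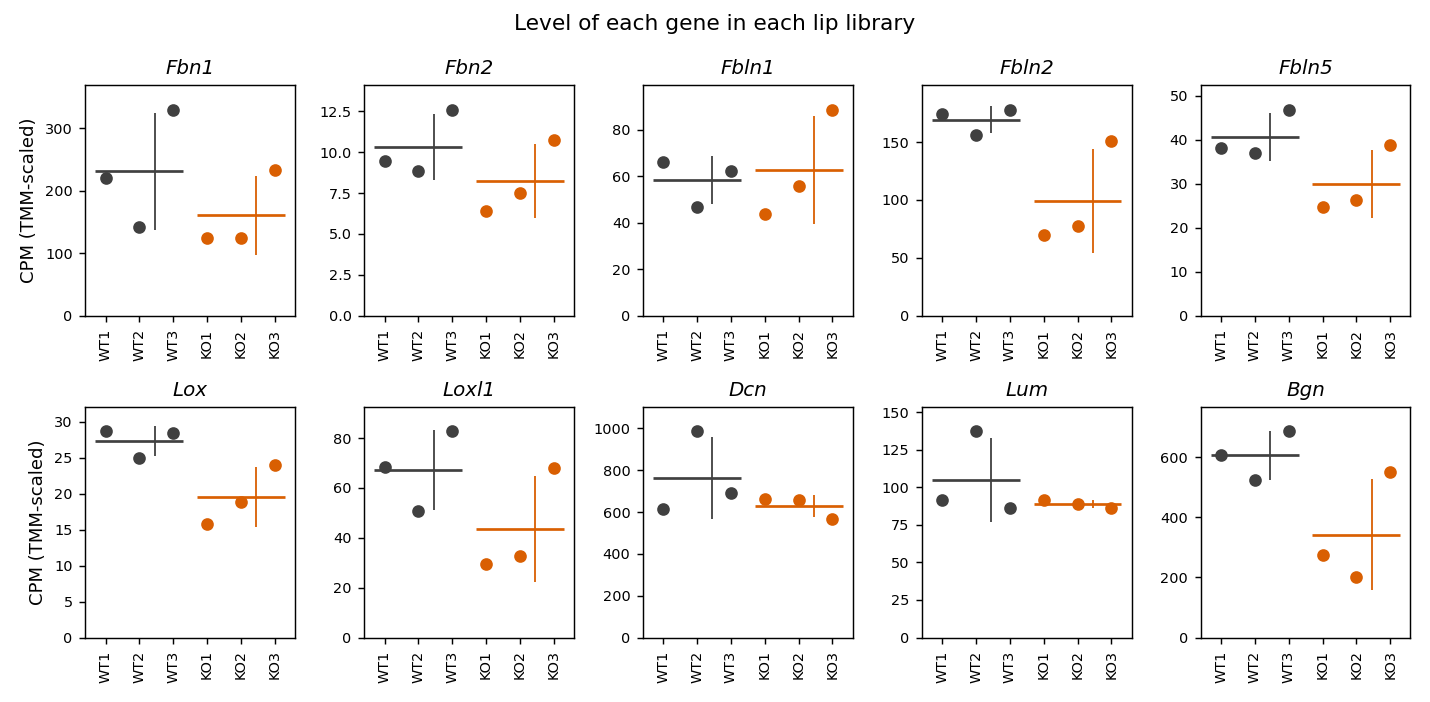
Level of each of the 10 genes in each library, in CPM (a gene's counts scaled to a common library total, with TMM factors), on axes that start at 0. Points are single libraries (WT grey, KO orange), the horizontal line is the mean of a genotype and the vertical line its SD (n = 3). In 8 of the 10 genes KO3 is the highest of the KO libraries, while Dcn and Lum are highest in WT2.

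The fibrillins came first among the structural genes. Fbn1 encodes the main fibrillin of adult microfibrils and is the gene mutated in Marfan syndrome. It stood at 221, 142 and 330 CPM in WT1, WT2 and WT3 and at 124, 124 and 234 CPM in KO1, KO2 and KO3. KO1 and KO2 were below every WT library, KO3 was above 2 of them, and the WT libraries themselves spread widely. The log2 fold change was -0.52 (SE 0.35, 95% interval -1.32 to 0.27, adjusted p = 0.337) and -0.18 without WT3. Fbn2, the fibrillin best known from embryonic microfibrils, lies at chr18:58008623-58210487 and stood at 9.44, 8.84 and 12.6 CPM in WT and at 6.40, 7.53 and 10.7 CPM in KO. Again KO1 and KO2 lay below all WT values and KO3 among them, with a log2 fold change of -0.32 (SE 0.24, adjusted p = 0.392). The log2 ratio of Fbn2 to Fbn1 counts, which does not depend on scaling between libraries, averaged -4.42 ± 0.37 in WT and -4.26 ± 0.20 in KO (mean ± SD, n = 3; exact permutation test, two-sided, p = 0.6). The difference of 0.17 ranged from 0.022 without WT3 to 0.37 without WT2. With 3 libraries against 3 this test cannot give less than 0.1.

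The fibulins followed, none of them past the test. Fbln2 stood at 174, 156 and 178 CPM in WT and at 69.5, 77.1 and 151 CPM in KO. Every KO library held less Fbln2 than every WT library, but KO3 was only just below WT2, while KO1 and KO2 were far below. The fitted log2 fold change was -0.77 (SE 0.28, 95% interval -1.42 to -0.13, adjusted p = 0.118, edgeR quasi-likelihood). Fbln5 encodes a fibulin that binds tropoelastin and lysyl oxidase-like 1, and its loss leaves elastic fibres disorganised in mice. Its values were 38.1, 36.9 and 46.9 CPM in WT and 24.8, 26.3 and 38.8 CPM in KO, so that KO3 alone reached the WT range (log2 fold change -0.44, SE 0.20, adjusted p = 0.185). Fbln1, which is found in elastic fibres and basement membranes, was at 66.2, 46.8 and 62.3 CPM in WT and at 43.9, 56.0 and 88.7 CPM in KO. For Fbln1 the lowest and the highest of the 6 libraries were both KO, KO1 and KO3, and the log2 fold change was 0.10 (95% interval -0.50 to 0.71, adjusted p = 0.812).

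The cross-linking enzymes had lower means in KO. Lox, lysyl oxidase, at chr18:52516067-52529867, starts the cross-linking of both collagen and elastin. It stood at 28.6, 24.9 and 28.4 CPM in WT and at 15.8, 18.8 and 24.0 CPM in KO. Each KO library was again under each WT library, with KO3 next to WT2, and the log2 fold change was -0.48 (SE 0.18, 95% interval -0.90 to -0.07, adjusted p = 0.124). Loxl1, the paralogue directed to elastic fibres, was at 68.3, 50.8 and 82.7 CPM in WT and at 29.4, 32.8 and 68.0 CPM in KO. KO1 and KO2 of Loxl1 were well below the WT range and KO3 was inside it (log2 fold change -0.63, SE 0.33, adjusted p = 0.233). The log2 ratio of Loxl1 to Lox averaged 1.27 ± 0.26 in WT and 1.07 ± 0.38 in KO (mean ± SD, n = 3; exact permutation test, two-sided, p = 0.5). The difference of -0.21 was -0.42 without KO3 and -0.07 without WT3 or KO2.

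Of the proteoglycans, Bgn had the lowest fitted value, with a 95% interval that overlaps those of Dcn and Lum. Bgn encodes biglycan, a carrier of chondroitin or dermatan sulphate chains that also binds TGF-beta. Its values were 607, 526 and 687 CPM in WT and 275, 202 and 553 CPM in KO. KO1 and KO2 were below all WT libraries by a wide margin and KO3 lay between WT2 and WT1. The log2 fold change of Bgn was -0.82 (SE 0.34, 95% interval -1.61 to -0.04, adjusted p = 0.154), a mean of 343 ± 185 CPM in KO against 607 ± 80.3 in WT.

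Dcn encodes decorin, which controls the width of collagen fibrils. It was read at 614, 985 and 693 CPM in WT and at 663, 656 and 568 CPM in KO. Only WT2 stood out, above the other 5 libraries, and 2 of the KO values lay within the WT range (log2 fold change -0.28, SE 0.20, 95% interval -0.74 to 0.18, adjusted p = 0.374). Lum, lumican, the keratan sulphate carrier first known from the cornea, had a like profile, with 91.6, 137 and 86.3 CPM in WT and 91.5, 88.8 and 86.5 CPM in KO. All KO values of Lum lay inside the WT range, within a spread of 2.54 CPM (SD), and WT2 again was the highest library. Its log2 fold change was -0.24 (95% interval -0.67 to 0.19, adjusted p = 0.412). Without WT2 the log2 fold changes of Dcn and Lum were 0.00 and 0.06.

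Ratios of proteoglycan counts within a library do not depend on scaling. The log2 ratio of Lum to Dcn was -2.74, -2.84 and -3.01 in WT and -2.86, -2.88 and -2.72 in KO. It hardly moved in any library, and the difference of 0.05 had an exact two-sided permutation p of 0.7. The log2 ratio of Bgn to Dcn was -0.01, -0.91 and -0.01 in WT and -1.27, -1.70 and -0.04 in KO. Bgn and Dcn counts were near equal in WT1, WT3 and KO3, and Bgn was the scarcer in WT2, KO1 and KO2. The genotypes overlapped in this ratio, and the difference of -0.69 had an exact two-sided permutation p of 0.2. It was -1.17 without KO3 and -0.34 without KO2. Over the 4 ratios computed, the adjusted p was 0.7 for each.

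Read against all genes, the counts over the 10 were as follows. Fbln2 and Lox were the 2 genes with all KO values below all WT values, where 18.1% of all tested genes had this order, and 0 of the 10 had the opposite order, where 13.5% did. Fbln2, Lox and Bgn had an unadjusted p under 0.05 with lower values in KO, 3 of 10 against 16% of all genes (edgeR quasi-likelihood). The exact test of edgeR is the one named in the study's methods. At an adjusted p under 0.05 it called Fbln2 alone, 1 of 10 against 7.15% of genes. Bgn followed in that test with an adjusted p of 0.0578. The study's methods give a looser cut-off than the 0.05 of its results. Each of these shares is within 1 or 2 genes of the share over all genes. The median log2 fold change of the 10 genes was -0.46, beside -0.02 for all tested genes, of which 52.0% were below 0, and the 10th percentile of all genes was -0.64.

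**Figure D2:**
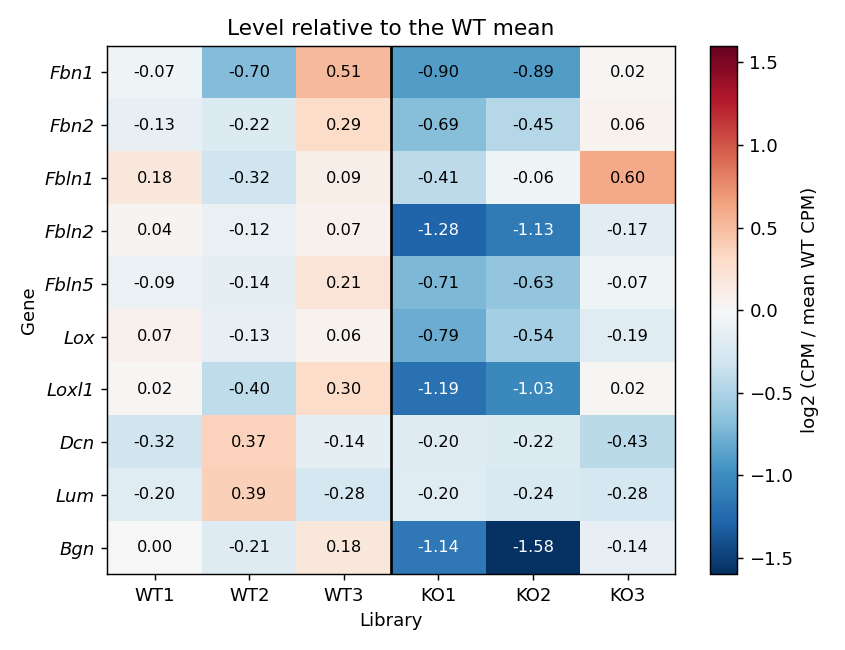
Each cell gives log2 of a gene's CPM in 1 library over the mean CPM of the 3 WT libraries, with blue below and red above that mean. KO1 and KO2 are below 0 for all 10 genes, whereas KO3 ranges from -0.43 for Dcn to 0.60 for Fbln1.

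Library by library, the 10 genes together took 0.190%, 0.226% and 0.210% of the counts of WT1, WT2 and WT3 and 0.130%, 0.133% and 0.179% of those of KO1, KO2 and KO3. The genotypes do not overlap in this share, though KO3 was nearer to WT1 than to KO2. The median log2 level relative to the WT mean was -0.75 in KO1, -0.58 in KO2 and -0.10 in KO3, and it ran from -0.17 to 0.14 in WT. KO1 was below all WT libraries in 8 of the 10 genes, KO2 in 7 and KO3 in 3, where 38.1%, 38.7% and 34.8% of all tested genes were. Among the WT libraries WT2 was the lowest in 8 genes and the highest in the other 2, Dcn and Lum.

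Over the 6 libraries Fbln2, Fbln5, Loxl1, Lox and Bgn followed the mean of the other genes closely, with Pearson r of 0.985, 0.984, 0.951, 0.945 and 0.937. Fbn2 and Fbn1 had r of 0.898 and 0.776 and Fbln1 of 0.417. For Lum and Dcn r was 0.036 and 0.018. These are descriptions over n = 6 libraries that share the genotype contrast and the position of KO3. Such closeness was not confined to the 10 genes, since 477 of 14999 other genes had r above 0.95 with their mean pattern. The closest were Hexa, a lysosomal hexosaminidase subunit, at 0.999, then 2310010J17Rik, Osr2, Fxyd2 and Rcn3 at 0.998. Hexa stood at 47.5, 48.3 and 55.9 CPM in WT and 27.3, 29.9 and 46.5 CPM in KO, with the same step between KO2 and KO3.

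Without KO3, log2 fold changes with an adjusted p under 0.05 were found for Bgn at -1.34, Fbln2 at -1.20, Loxl1 at -1.11, Fbn1 at -0.89, Fbln5 at -0.67 and Lox at -0.65. Fbn2 at -0.55 had an adjusted p of 0.0698 (edgeR quasi-likelihood). Dcn and Lum at -0.21 and -0.22 moved little from their values with all libraries, and Fbln1 turned from 0.10 to -0.22 (adjusted p = 0.374). The median of the 10 became -0.66. Leaving out any other single library gave 0 calls among the 10. Without KO1 the values of Bgn, Fbln2, Loxl1 and Fbn2 were nearer to 0, at -0.63, -0.51, -0.36 and -0.11, and without KO2 those of Bgn and Fbln2 were -0.50 and -0.56. KO3 is a mouse of its genotype by its label, so the fit with all 6 libraries is the one the design gives.

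**Figure D3:**
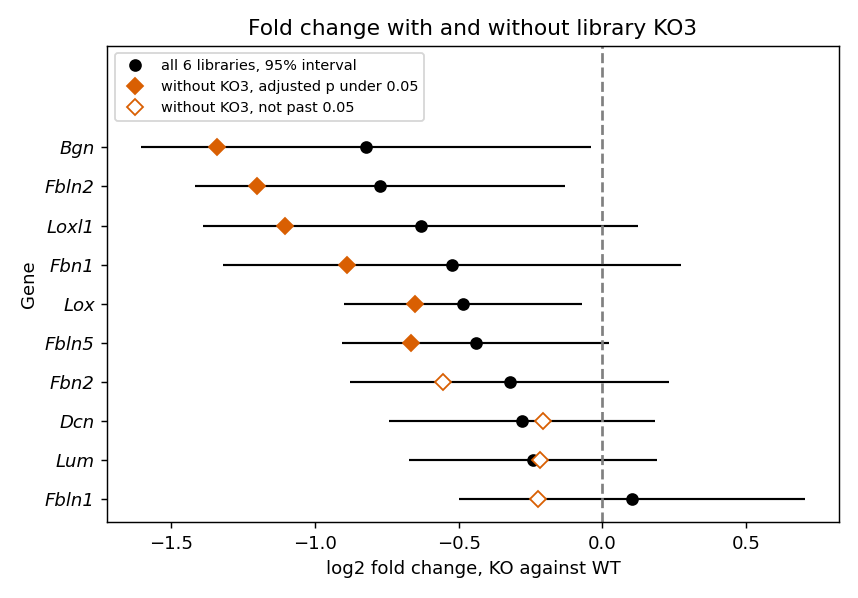
Fitted log2 fold change of KO against WT for each gene with all 6 libraries (black, with the 95% interval) and without KO3 (diamonds, filled where the adjusted p is under 0.05). With all libraries the intervals of Bgn, Fbln2 and Lox end below 0, but 0 genes pass the adjusted threshold. Without KO3, 6 genes pass it.

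The partners of these genes in the elastic fibre were examined as 22 further genes, of which 21 were tested. Of these, 2 fell, 0 rose and 21 of 21 had a fitted change below 0, with a median log2 fold change of -0.57. Eln, the elastin core of the fibre, stood at 123, 73.4 and 159 CPM in WT and at 52.0, 50.5 and 168 CPM in KO. It lies at chr5:134702593-134747323, near the targeted Gtf2ird1 at chr5:134357656-134456716, and a local effect of the allele on Eln was not tested. KO3 held the most Eln of any library and KO2 the least, and the log2 fold change of -0.39 had an adjusted p of 0.610. Efemp2, the fibulin that helps lysyl oxidase reach elastin, averaged 22.5 ± 2.97 CPM in WT and 14.1 ± 4.73 in KO (n = 3; log2 fold change -0.67, adjusted p = 0.118). The genes that fell were Adamtsl5 and Adamtsl4, ADAMTS-like proteins that associate with fibrillin microfibrils. Adamtsl5 went from 66.2 ± 1.61 to 40.3 ± 4.86 CPM (log2 fold change -0.72, SE 0.13, adjusted p = 0.0212) and Adamtsl4 from 90.3 ± 6.83 to 42.0 ± 14.2 (-1.10, SE 0.23, adjusted p = 0.0316). Neither call held when a library other than KO3 was left out, and over the 16 alternatives they were called in 10 and 11. Without KO3, 18 of the 21 genes were called lower. In that fit 16.2% of all tested genes were called lower, and 2496 of 14802 were called higher. These shares stand beside every count without KO3 in the lists below.

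Of 14 other small leucine-rich proteoglycans, 10 were tested, 0 were called, and the median log2 fold change was -0.26. Without KO3, 3 were called lower and the median was -0.11. Fmod and Prelp, which bind collagen fibrils as Lum does, had the lowest p. Fmod averaged 215 ± 43.8 CPM in WT and 110 ± 42.9 in KO (log2 fold change -0.98, adjusted p = 0.0731), and Prelp 84.4 ± 6.03 and 47.3 ± 18.0 (-0.84, adjusted p = 0.0784). Kera, which lies next to Lum on chromosome 10, averaged 4.24 ± 1.70 CPM in WT and 5.51 ± 1.82 in KO and overlapped between genotypes. It was named after its value was seen, as were Aspn, Ogn, Omd and Ecm2, a cluster on chromosome 13. Aspn, Ogn, Omd and Ecm2 had log2 fold changes of -0.26, 0.23, -0.20 and 0.00. The 95% intervals of Aspn (-1.04 to 0.53) and Omd (-1.01 to 0.60) held the -0.82 of Bgn, and those of Ogn and Ecm2 did not. Aspn, Ogn and Omd were lowest of all libraries in KO3, at 27.4, 26.3 and 4.98 CPM. Ogn stood at 66.1 and 67.8 CPM in KO1 and KO2, above every WT library. Among 5 further proteoglycans, most of them large, 0 were called, and 3 were called lower without KO3. One of them, Cspg4, is also among the smooth muscle and pericyte markers below, so its call without KO3 counts in both lists. Hspg2, the basement membrane proteoglycan perlecan, had a log2 fold change of -0.80 (adjusted p = 0.0947) and Acan, aggrecan, of -0.69 (adjusted p = 0.124).

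Enzymes that build the sugar chains of Dcn, Bgn and Lum were listed apart. Of 22 enzymes of chondroitin and dermatan sulphate, 21 were tested, 1 rose and 0 fell, with a median log2 fold change of -0.34, and without KO3 1 was called higher and 6 lower. The gene that rose was Chst3, which adds sulphate to the chondroitin chain. It stood at 24.1, 22.1 and 25.7 CPM in WT and at 34.2, 41.7 and 50.7 CPM in KO, with no overlap (log2 fold change 0.82, SE 0.17, adjusted p = 0.0333). Its call was also made without KO1 and without KO3, and it was lost when KO2 or any WT library was left out. Unlike most of the 10 genes, Chst3 was farthest from WT in KO3. Of 8 keratan sulphate enzymes, 4 were tested and 0 called, with 3 called lower without KO3. Chst2 and B4galt4 had the lowest p, with log2 fold changes of -0.79 and -0.34 and adjusted p of 0.187 and 0.220.

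Markers of the cell types in lip are given here beside the genes above, with few past the test. Of 11 dermal fibroblast markers, all tested, 9 had a log2 fold change below 0, with a median of -0.68. Of these, 1 was called, Prrx1 (94.2 ± 3.84 CPM in WT, 64.7 ± 5.29 in KO, adjusted p = 0.0430, edgeR quasi-likelihood). The markers did not move together. Clec3b was lowest at -0.88, Pdgfra was at -0.23, and Fap and Dpp4 were above 0, at 0.06 and 0.16. Without KO3, 8 of the 11 were called lower, with a median of -1.01, where 16.2% of all tested genes were called lower. Their summed level was 6082 to 8551 CPM in WT and 2436 to 6764 CPM in KO. Col1a1, Col1a2 and Col3a1, which are also in the collagen list, held most of it, and the other 8 markers summed to 904 to 1095 CPM in WT and 522 to 833 in KO. The mean log2 level of these markers was -0.18, 0.00 and 0.17 in WT, relative to the WT mean, and -0.85, -0.64 and -0.23 in KO1, KO2 and KO3. This is the order of the KO libraries seen in most of the 10 genes. The summed levels of collagens and of skeletal muscle, smooth muscle and endothelial markers also rose from KO1 to KO2 to KO3. Those of keratinocyte and adipocyte markers did not. Macrophage markers summed to 189.4, 188.7 and 279.7 CPM in KO1, KO2 and KO3, near level between KO1 and KO2 and higher in KO3. The order was thus not particular to fibroblast markers.

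Taken relative to the mean of the fibroblast markers in each library, KO minus WT in log2 was 0.07 for both Fbn1 and Lox, 0.11 for Fbln5 and -0.13 for Loxl1. It was -0.28 for Fbln2 and -0.37 for Bgn, and 0.23 for Fbn2. Dcn, Lum and Fbln1 were at 0.32, 0.37 and 0.63. The genes thus lay on both sides of 0 once set against these markers, but most within the spread between libraries. Fbn2 and Fbln1 alone differed by more than the larger of their SDs in WT and KO, 0.18 and 0.34 (n = 3). For Dcn the SD was 0.35 in WT and 0.44 in KO, and for Bgn 0.19 and 0.52. The part of the fibroblast markers in the values of the 10 genes was not tested further.

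Fibrillar and related collagens, 11 genes that were all tested, had 11 fold changes below 0 with a median of -0.75, and 0 were called. Col5a1 at -1.03 and Col6a2 at -0.85 had the lowest p (adjusted p = 0.0934 and 0.115). Their summed level was 6852 to 9565 CPM in WT and 2763 to 7591 CPM in KO, with 9 of 11 called lower without KO3. As 3 of these genes are also fibroblast markers, the lists are not separate evidence. Skeletal muscle markers had a median log2 fold change of -1.03 over 8 genes, of which Tnnt3 and Tnni2 fell (adjusted p = 0.0397 and 0.0484), and summed to 9679 to 12904 CPM in WT and 4173 to 8269 in KO. Without KO3, 8 of the 8 were called lower. Smooth muscle and pericyte markers, another source of elastic fibre transcripts, had 7 of 7 fold changes below 0, with 1 called, Tagln (log2 fold change -0.59, adjusted p = 0.0437). Their summed level was 399 to 425 CPM in WT and 236 to 345 in KO, and 4 of 7 were called lower without KO3.

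Of 6 adipocyte markers, 1 fell, Fabp4 (log2 fold change -0.65, adjusted p = 0.0303), with summed levels of 92.0 to 114 CPM in WT and 64.7 to 69.0 in KO, and 3 of the 5 tested without KO3 were called lower. Keratinocyte markers had 7 of 8 fold changes above 0 and 0 called, or 2 called higher without KO3. They summed to 29181 to 32445 CPM in WT and 41302 to 55861 in KO, and Krt1, of the upper epidermis, and Dsg3, a desmosome cadherin, had adjusted p of 0.0584 and 0.0505. Endothelial and macrophage markers had 0 of 6 called each, with medians of -0.22 and -0.18, and without KO3 3 of 6 each were called lower, with medians of -0.50 and -0.43. Cdh5 and Vwf had the lowest p of the endothelial markers (adjusted p = 0.150 and 0.263) and C1qa and C1qb of the macrophage markers (0.167 and 0.233). The calls of Prrx1, Tagln, Tnnt3, Tnni2 and Fabp4 were lost when any library but KO3 was left out. Over the 16 alternatives, left-out libraries included, Prrx1 and Tagln were called in 6, Tnni2 in 7, Fabp4 in 9 and Tnnt3 in 10. No gene of these lists was at 3 counts or fewer over all libraries, and every tested marker was read in both genotypes. Their part in the levels of the 10 genes was not tested.

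**Figure D4:**
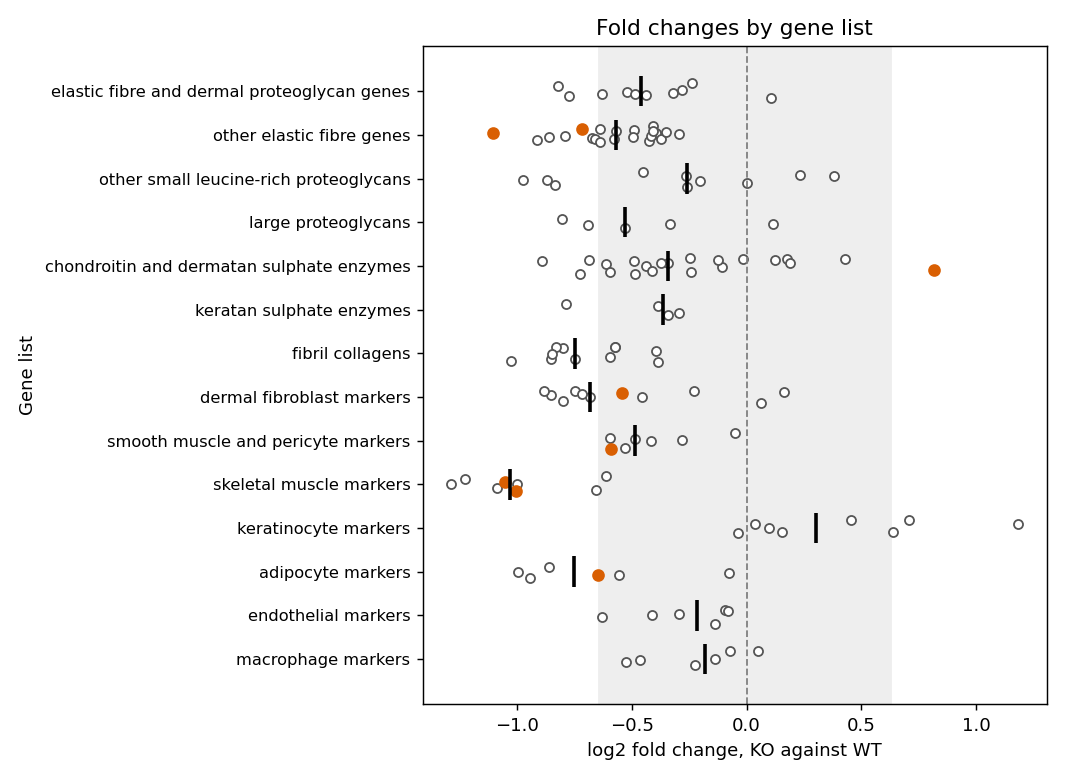
Fitted log2 fold change of KO against WT for each tested gene of each list, with the list median as a black bar, filled orange points for an adjusted p under 0.05 and the 10th to 90th percentile of all tested genes in grey. The 10 genes have a median of -0.46, the other elastic fibre genes of -0.57, the fibroblast markers of -0.68 and the keratinocyte markers of 0.30.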

How the data were processed

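The authors extracted RNA from the top lip of 3 WT and 3 KO mice with 1 library each, and aligned the paired reads to GRCm38 (TopHat2 2.0.8, Bowtie2 2.1.0). The deposited values are raw HTSeq counts of uniquely mapped reads per gene, from all 6 libraries. The 10 genes and all lists and motifs were chosen with earlier results of these data known.

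A gene was tested if 3 or more libraries reached 1 CPM (15009 of 26814). R 4.3.3 and edgeR 4.0.16 were used, with TMM factors, glmQLFit (legacy=FALSE) and glmQLFTest on genotype alone. The Benjamini-Hochberg adjustment ran over these 15009 genes, and a gene was called under 0.05. CPM are scaled by TMM, and p-values measure the spread between mice. Levels per kb used the union of exons of GENCODE for GRCm38, in which all 10 genes were found. Alternatives were the exact test of edgeR, the Wald test of DESeq2 1.42.0, limma-voom (limma 3.58.1), the older quasi-likelihood fit, other scalings (DESeq2 size factors, library size, upper quartile), other filters (none, or 10 counts in every library), a replicate block, and each library left out in turn. The fit was tested on simulated counts with 200 genes changed.

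Named were the 10 genes, Eln and Efemp2 as partners, Gtf2ird1, the 5 genes most like the 10 in pattern and, in each other list, genes past the threshold or else the 2 with the lowest p. Kera, Aspn, Ogn, Omd, Ecm2, Pdgfra, Fap, Dpp4, Clec3b and Cspg4 were named outside this rule, after their values were seen. Figures were drawn with Python 3.11.15 and matplotlib 3.10.9.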

Additional observations from a re-analysis of the deposited data

How the results depend on the processing

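The number of the 10 genes called lower was 0 with all 6 libraries in every alternative except the exact test of edgeR, which gave 1, and it ranged from 0 to 6 as each library was left out, with the 6 found only without KO3. The number called higher was 0 throughout. Their median log2 fold change, -0.46, ranged from -0.66 (without KO3) to -0.28 as libraries were left out. Without WT2 the log2 fold changes of Dcn and Lum turned to 0.0044 and 0.058, in ranges from -0.42 and -0.37, and without KO3 that of Fbln1 turned to -0.22, in a range up to 0.37. The log2 ratio of Lum to Dcn differed by -0.026 without WT3 and -0.0062 without KO3, within a range up to 0.11. The cause was not tested. Over all genes, calls lower and higher numbered 314 and 657, 1073 and 1165 by the exact test, 1142 and 1426 by DESeq2, and 2395 and 2496 without KO3. Leaving out another library gave 18 to 62 and 208 to 476. With no filter 204 and 915 were called, with 10 counts in every library 204 and 494, and with DESeq2 size factors 207 and 662. With a replicate block 0 of the 10 genes were called and their median was -0.48. Libraries of the same number had deviations that correlated at -0.19, 0.31 and 0.33, and WT1 correlated best with KO3 and WT2 with KO1, so the numbers were not taken to pair the mice. With 3 mice a genotype the SEs of the 10 log2 fold changes were 0.18 to 0.35, which limits what can be said of single genes.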
